A study of Mus musculus with 8 samples.

Results

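Transcripts of 7 mouse enzymes that make nitric oxide, cut or rebuild arginine, or make itaconate were followed in dendritic cells with and without Gata1. The enzymes are Nos2, Gch1, Ass1, Asl, Arg1, Arg2 and Irg1 (the older name of Acod1). They were chosen by name from the 23420 features of the authors' deposited count table, and all 7 were found there. Dendritic cells take up, process and present antigen to T cells. The cells came from mice with a Gata1 knock-out (KO) or with wild-type Gata1 (WT), and were left at steady state or stimulated with LPS, a bacterial lipopolysaccharide that toll-like receptor 4 senses. Each of the 4 groups had 2 libraries, which the series design calls biological replicates. The strain and age of the mice, the way Gata1 was deleted, the source of the cells, and the LPS dose and time are not stated in the labels. Nothing says that replicates came from separate mice, so the p-values measure the spread between these libraries.

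Inducible nitric oxide synthase, encoded by Nos2, turns arginine into citrulline and nitric oxide, a toxic and signalling gas made by activated phagocytes. It needs tetrahydrobiopterin, whose synthesis starts with GTP cyclohydrolase I, encoded by Gch1. Citrulline can be turned back into arginine by argininosuccinate synthase (Ass1) and argininosuccinate lyase (Asl). The arginases, cytosolic Arg1 and mitochondrial Arg2, compete for the same arginine and split it into ornithine and urea. Aconitate decarboxylase, encoded by Irg1, diverts cis-aconitate from the citric acid cycle into itaconate, which inhibits succinate dehydrogenase and bacterial growth.

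Total counts ran from 8005151 to 15495249 per library. Levels are CPM, read counts brought to a common library size with TMM factors, given for each library or as mean ± SD (n = 2). Differences are log2 fold changes ± SE from edgeR's quasi-likelihood test, fitted to all 8 libraries and 12442 genes, with Benjamini-Hochberg adjusted p. A gene was called when that p was under 0.05. All 9 dendritic cell markers had reads in every library, and their summed level was 15523 to 24220 CPM at steady state, 10134 to 12796 in WT with LPS and 3845 to 7376 in KO with LPS. Cd74 and H2-Ab1 together made up most of that sum in every library. Flt3 had only 4 and 2 reads in KO with LPS and 7 and 302 in WT with LPS, against 206 to 752 at steady state. Of 12 macrophage markers at most 1 had no read in any library. Their summed level was 6309 to 11035 CPM at steady state, 2647 to 5012 in WT with LPS and 6215 to 6405 in KO with LPS. Apoe made up most of that sum in every steady-state library and lay at 44.4 to 947 CPM with LPS. The markers went both ways, with 2 of the 12 called higher with LPS and 6 lower in each genotype. Over all genes 3.0% were called higher and 3.49% lower in WT, and 5.30% and 6.46% in KO. Summed levels per library ran from 164 to 836 CPM for 10 neutrophil markers, 10.5 to 135 for 7 mast cell and basophil markers, 0.529 to 29.97 for 5 B cell markers and 0.186 to 7.99 for 5 T and NK cell markers. Mmp8 made up most of the neutrophil sum (145 to 580 CPM), and Gata2 most of the mast cell and basophil sum in every library except WT steady-state replicate 2. That library stood apart, with S100a9 at 87.9 CPM against at most 9.37 in the others, Ngp at 48.9 against at most 2.22, Prss34 at 55.9 against at most 1.35 and Cpa3 at 16.7 against at most 1.55. Gata1 itself had 0 reads in the 4 KO libraries, and 1, 10, 0 and 1 in the WT libraries (steady state replicates 1 and 2, then LPS), so it checks the labels only in WT steady-state replicate 2. In bulk RNA, fewer cells of a type and less RNA per cell cannot be told apart. What these markers contribute to the levels below was not tested.

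LPS raised 3 of the 7 enzymes in both genotypes, Nos2, Irg1 and Gch1, and lowered 0. Over all genes, 6.49% were called in WT and 11.8% in KO, with 3.0% and 5.30% called higher and 3.49% and 6.46% called lower. Asl, Arg1 and Arg2 were tested and did not pass, and Ass1 had too few reads to test. The WT count was 2 in a fit to the WT libraries alone, 1 without either WT steady-state library and 4 without WT LPS replicate 2. The KO count was 2 without KO steady-state replicate 1, 1 without KO steady-state replicate 2, and 4, with Arg2, in DESeq2, in a fit to the KO libraries alone and without either WT LPS library. The LPS and steady-state libraries did not overlap for 4 of the 6 tested enzymes in each genotype, where 56.6% of all genes in WT and 72.6% in KO did not overlap. In WT these were 3 higher (27.5% of all genes) and 1 lower (29.1%), and in KO 4 higher (34.4%) and 0 lower (38.2%).

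**Figure D1:**
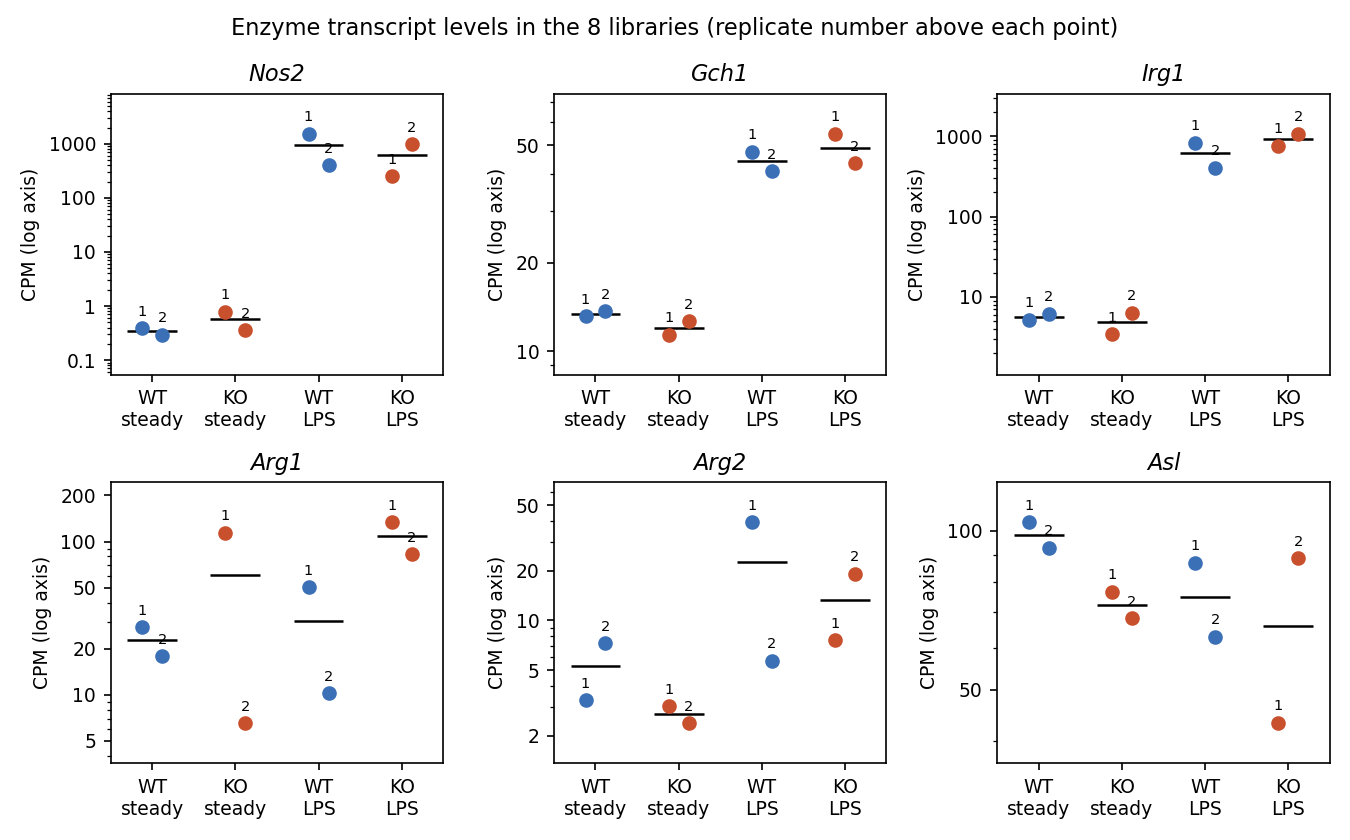
Level of 6 enzymes (CPM, log axis) in each library, with the replicate number above each point and a line at the group mean of 2 libraries. Nos2, Gch1 and Irg1 separate LPS from steady state completely, while the 2 KO steady-state libraries lie at 114 and 6.55 CPM for Arg1.

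Nos2 (GRCm38 chromosome 11, 78920787 to 78960254, plus strand) had few reads before LPS. Its reads numbered 10 and 4 in the KO steady-state libraries and 4 and 4 in WT, or 0.776, 0.354, 0.386 and 0.297 CPM. With LPS the WT libraries held 1540.4 and 401 CPM and the KO libraries 252 and 987 CPM. Every LPS library lay above every steady-state library, and the LPS libraries of the 2 genotypes overlapped. The rise was log2 11.44 ± 1.24 in WT (edgeR adjusted p = 0.00516) and 10.05 ± 1.17 in KO (edgeR adjusted p = 0.00520). It ranked 2 from the top of all tested genes by fold in WT and 4 in KO. Nos2 passed the filter on low counts only through its LPS libraries. With so few reads before LPS the size of the rise is loosely held, with a 95% interval of log2 8.54 to 14.34 in WT and 7.32 to 12.78 in KO. The WT call was lost without WT steady-state replicate 1 or 2 (edgeR adjusted p = 0.0739 and 0.0637), and the KO call without KO steady-state replicate 2 (0.0531), at log2 11.62, 11.25 and 9.65.

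Replicates treated with LPS differed in Nos2 by 3.84 times in WT and 3.91 times in KO. Among all tested genes, 9.36% were at least as far apart in the WT pair and 3.63% in the KO pair. The higher library was replicate 1 in WT and replicate 2 in KO, and the same libraries were the higher ones for Irg1, Arg2 and Asl. Those libraries also held more heat shock transcripts than their partners. The 6 heat shock genes summed to 1515 against 401 CPM in WT with LPS and to 399 against 217 CPM in KO with LPS. Whether the 2 differences are linked was not tested.

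Gch1 (chromosome 14, 47153895 to 47189413, minus strand) had the smallest replicate differences of the 6 tested enzymes. It stood at 11.4 and 12.7 CPM in the KO libraries and 13.1 and 13.7 in the WT libraries at steady state. With LPS it stood at 54.8 and 43.5 CPM in the KO libraries and 47.5 and 40.8 in the WT libraries. The libraries of the 2 treatments did not overlap in either genotype, and the genotypes overlapped after LPS. The rise was log2 1.72 ± 0.24 in WT (edgeR adjusted p = 0.0107) and 2.03 ± 0.25 in KO (edgeR adjusted p = 0.00566), or 3.29-fold and 4.08-fold. Replicates differed by at most 1.26 times in any group. The calls were lost without WT steady-state replicate 1 or 2 in WT (edgeR adjusted p = 0.105 and 0.0893) and without KO steady-state replicate 1 or 2 in KO (0.0767 and 0.0599), with log2 rises of 1.70, 1.76, 1.96 and 2.13. In a fit to the 4 WT libraries alone the WT rise was log2 1.72 (edgeR adjusted p = 0.0673).

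Irg1 (chromosome 14, 103046977 to 103056573, plus strand) rose with LPS in both genotypes. Steady-state levels were 3.41 and 6.38 CPM in the KO libraries and 5.22 and 6.17 in the WT libraries. After LPS they were 765 and 1079 CPM in the KO libraries and 832 and 407 in the WT libraries. LPS and steady-state libraries did not overlap, and the genotypes overlapped under both conditions. The rise was log2 6.76 ± 0.57 in WT (edgeR adjusted p = 0.00372) and 7.56 ± 0.59 in KO (edgeR adjusted p = 0.00236). Both calls held under each of the 15 alternatives, with log2 rises of 6.16 to 7.18 in WT and 7.17 to 8.10 in KO.

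**Figure D2:**
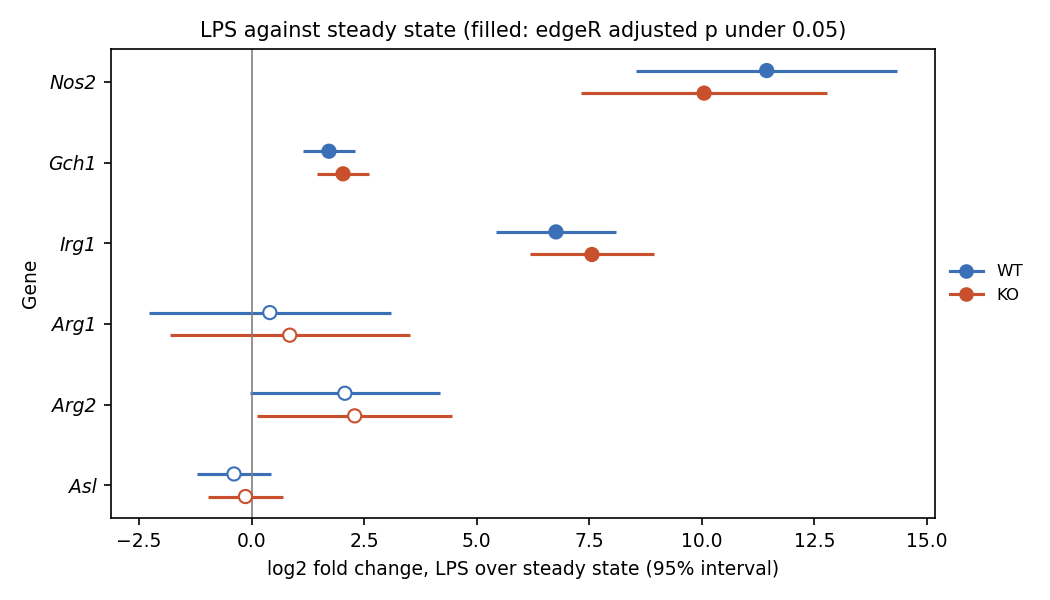
LPS response of 6 enzymes as log2 fold change over steady state with its 95% interval, WT in blue and KO in red, filled where called. The intervals of Nos2, Gch1 and Irg1 lie above 0 in both genotypes, and the WT and KO intervals overlap for every gene drawn.

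The set of RefSeq (GRCm38.p6) promoter windows at hand held 3 of the enzymes, Irg1, Gch1 and Ass1. Nos2, Arg1, Arg2 and Asl had no window in that set. All 3 windows found are shown. Irg1 and Gch1 rose with LPS, and Ass1 had at most 2 reads in any library. Each window is the 250 bases before the RefSeq start site. The RefSeq starts of Irg1 and Ass1 lie downstream of the GENCODE starts given with the genes, so the last 35 and 63 bases of those windows are inside the GENCODE gene, in the 5′ UTR, and are not printed. Shown are chr14:103046762-103046976 on the plus strand for Irg1, chr14:47189414-47189663 on the minus strand for Gch1 and chr2:31470020-31470206 on the plus strand for Ass1. They are read 5′ to 3′ on the gene's own strand, and capitals mark the matches to the motifs named after them.
Irg1: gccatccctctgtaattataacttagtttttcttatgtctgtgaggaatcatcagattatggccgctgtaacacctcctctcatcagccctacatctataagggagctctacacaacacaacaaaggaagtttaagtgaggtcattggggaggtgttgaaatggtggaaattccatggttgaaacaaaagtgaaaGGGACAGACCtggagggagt
Gch1: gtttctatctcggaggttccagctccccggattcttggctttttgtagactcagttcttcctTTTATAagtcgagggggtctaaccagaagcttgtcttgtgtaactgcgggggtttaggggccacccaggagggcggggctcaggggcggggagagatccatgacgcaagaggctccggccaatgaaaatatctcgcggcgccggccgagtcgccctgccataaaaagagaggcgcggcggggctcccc
Ass1: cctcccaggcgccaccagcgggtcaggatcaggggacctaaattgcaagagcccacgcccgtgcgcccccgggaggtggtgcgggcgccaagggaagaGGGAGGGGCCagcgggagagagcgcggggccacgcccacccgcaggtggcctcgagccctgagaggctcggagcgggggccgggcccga

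Both strands were searched for 6 motifs, and matches were counted in the full 250 bases of all 32851 RefSeq windows, with positions counted from the RefSeq start. The NF-kB letters, GGGA and CC with 4 bases of any kind between them, occurred 55 to 46 bases before the start of Irg1 and 152 to 143 bases before that of Ass1, and in 17.6% of all windows. The TATA box letters TATAAA occurred 28 to 23 bases before the start of Irg1, in the unprinted bases inside the GENCODE gene, and, on the opposite strand, 188 to 183 bases before that of Gch1, and in 12.4% of all windows. The interferon response letters, GAAA and GAAA with 2 bases of any kind between them (2.98% of windows), STAT letters TTCNNNGAA (7.02%), C/EBP letters TTGCNNAA (9.56%) and GATA letters AGATAA (9.99%) were in none of the 3 windows. The windows differed in base composition, with 44.4% G and C in Irg1, 59.2% in Gch1 and 75.6% in Ass1, against a median of 52.4%. These matches describe letters only.

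The enzymes that rebuild arginine from citrulline differed in read count. Ass1 (chromosome 2, 31470207 to 31520672, plus strand) had 1 and 0 reads in KO and 2 and 2 in WT at steady state. With LPS it had 1 and 0 in KO and 0 and 2 in WT. Every library was under the 3 reads that a count of 0 allows, or 0.194 to 0.375 CPM of total reads, a limit that covers counting error only. Ass1 was not detectable above that limit, and no fold is given. In the lists read below, Oaz1 also had only 2 to 10 reads per library and Amd1 had 0. Whether reads matching several genes were left out is not stated, so such counts need not mean that the transcript was absent. This was not tested.

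Asl (chromosome 5, 130011258 to 130029247, minus strand) had 383 to 1248 reads in every library. At steady state it lay at 76.6 and 68.3 CPM in the KO libraries and 104 and 92.8 in the WT libraries, and with LPS at 43.3 and 88.6 in KO and 86.9 and 63.0 in WT. The WT libraries were lower with LPS without overlap, and the KO libraries overlapped. The LPS difference was log2 -0.39 ± 0.35 in WT (edgeR adjusted p = 0.502) and -0.14 ± 0.36 in KO (edgeR adjusted p = 0.808), and the KO difference was 0.29 without KO LPS replicate 1.

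Arg1 (chromosome 10, 24915221 to 24927484, minus strand), which drains arginine into ornithine and urea, did not pass the test in any comparison, and its replicates were far apart. At steady state the KO libraries held 114 and 6.55 CPM, from 1470 and 74 reads, and the WT libraries 27.6 and 17.9. With LPS the KO libraries held 134 and 82.8 CPM and the WT libraries 50.5 and 10.2. The KO steady-state libraries thus lay on both sides of the WT ones, while both KO LPS libraries were above both WT LPS libraries. The KO steady-state pair differed by 17.4 times, and only 0.0964% of tested genes were at least as far apart in that pair. The LPS difference was log2 0.40 ± 1.15 in WT (edgeR adjusted p = 0.845, 95% interval -2.29 to 3.09) and 0.85 ± 1.14 in KO (edgeR adjusted p = 0.624, 95% interval -1.82 to 3.51). It turned to -1.15 in WT without WT LPS replicate 1, and in KO it was 4.05 without KO steady-state replicate 1 and -0.05 without replicate 2.

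Other transcripts of alternative activation, the macrophage and dendritic cell state that interleukin-4 induces, were read beside Arg1. The chitinase-like Chi3l3 was also higher in KO replicate 1 than in replicate 2, at 319 and 31.3 CPM at steady state and 231 and 63.1 with LPS. In WT it lay at 28.8 and 74.1 CPM at steady state and 32.4 and 24.4 with LPS. In the KO steady-state pair Retnla, Ccl24 (19.5 and 3.45 CPM), Mrc1 and Clec10a were also higher in replicate 1. Mgl2 was lower there (208 and 270 CPM). All 6 markers of this list summed to 3201 and 1211 CPM in the KO libraries and 2762 and 503 in the WT libraries at steady state. With LPS they summed to 329 and 125 CPM in the KO libraries and 53.8 and 32.3 in the WT libraries. The resistin-like Retnla made up most of the sum in 3 of the 4 steady-state libraries, at 2324 and 644 CPM in the KO libraries and 2181 and 44.5 in the WT libraries, against 0.371 to 20.1 CPM in the LPS libraries, and did not pass the test. Retnla, Mrc1 and Mgl2 were lower in every LPS library than in every steady-state library, and Chi3l3, Clec10a and Ccl24, like Arg1, were not. The C-type lectins Mgl2, Clec10a and the mannose receptor Mrc1 were called lower with LPS in WT, and Mgl2 and Mrc1 in KO. In KO Clec10a went from 99.8 and 76.9 CPM to 56.1 and 36.4 (not called). Clec10a was called higher in KO than in WT with LPS, where WT held 1.32 and 1.42 CPM (log2 5.06 ± 0.64, edgeR adjusted p = 0.0342). The markers were not read under the alternatives. All genes called between KO and WT with LPS went from 96 to 0 in a fit to the 4 LPS libraries alone and to 8 with the replicate block. No marker of the list was at 0 in any library. The part of such cells in the Arg1 values was not tested.

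**Figure D3:**
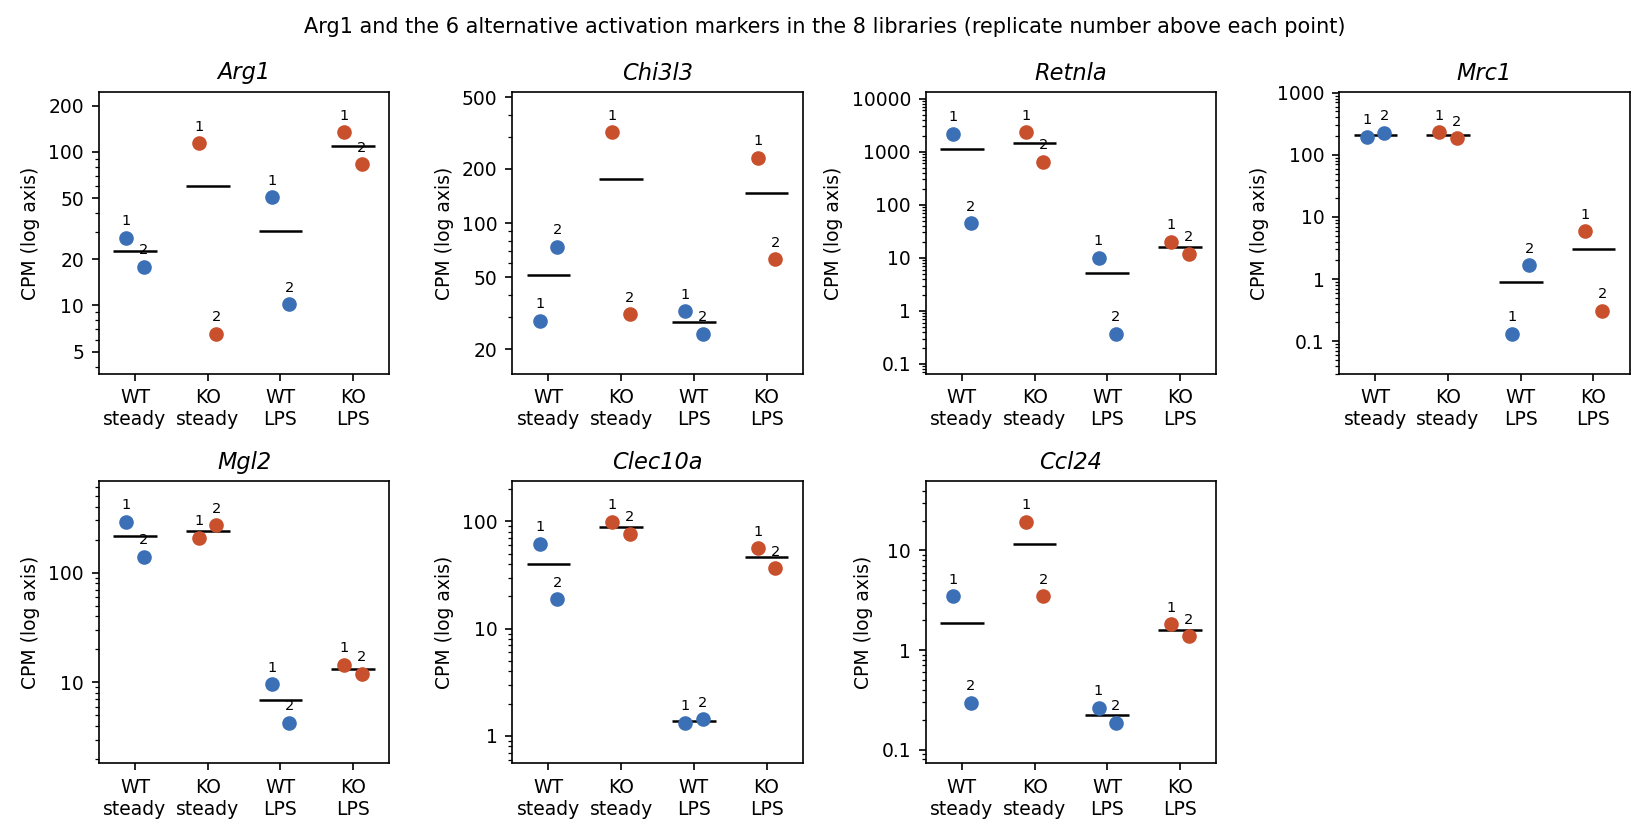
Arg1 and the 6 alternative activation markers (CPM, log axes) in each library, WT in blue and KO in red, with the replicate number above each point and a line at the mean of 2 libraries. Arg1 and Chi3l3 have a high and a low KO steady-state library (114 and 6.55 CPM, 319 and 31.3 CPM), and Mrc1 and Mgl2 are low in all 4 LPS libraries.

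Arg2 (chromosome 12, 79130777 to 79156301, plus strand), the mitochondrial arginase, was per kilobase of exon the less abundant arginase in every library except WT LPS replicate 1. It lay at 3.02 and 2.39 CPM in the KO libraries and 3.28 and 7.29 in the WT libraries at steady state, and at 7.57 and 19.1 in KO and 39.4 and 5.69 in WT with LPS. In KO both LPS libraries were above both steady-state libraries, and in WT the treatments overlapped. The LPS difference was log2 2.07 ± 0.90 in WT (edgeR adjusted p = 0.192, 95% interval -0.03 to 4.17) and 2.29 ± 0.93 in KO (edgeR adjusted p = 0.138, 95% interval 0.12 to 4.46). DESeq2 called the KO difference (log2 2.32, adjusted p = 0.0413), as did edgeR fitted to the 4 KO libraries alone (0.0430) and without WT LPS replicate 1 or 2 (0.0283 and 0.0257). The WT difference was called without WT LPS replicate 2 (log2 2.88, edgeR adjusted p = 0.0178) and was 0.10 without WT LPS replicate 1. Vti1b and the antisense RNA Gm48780 overlap Arg2 on the opposite strand, and without strand information their reads cannot be told apart.

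Levels were set between genes as CPM per kilobase of merged exons. At steady state Arg1 had the highest mean level of the 6 tested enzymes in KO, at 27.1 ± 34.1 (SD, n = 2), and Asl in WT, at 20.3 ± 1.60. The KO order rests on replicate 1, where Arg1 was at 51.2 and Asl at 15.9, since in replicate 2 Arg1 was at 2.94 and Asl at 14.1. Nos2 had the lowest, at 0.128 ± 0.0675 in KO and 0.0775 ± 0.0142 in WT. With LPS Irg1 stood at 351 ± 84.6 in KO and 236 ± 114 in WT, and Nos2 at 140 ± 118 and 220 ± 183. Gch1, the source of the cofactor, stood at steady state at 1.92 ± 0.143 in KO and 2.15 ± 0.0618 in WT. It reached 7.86 ± 1.28 and 7.06 ± 0.751 with LPS.

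The balance of Nos2 to Arg1, the enzymes that compete for arginine, turned over in 3 of the 4 LPS libraries. Per kilobase, Arg1 exceeded Nos2 at steady state 291 and 36.6 times in KO and 142 and 119 times in WT. Those ratios rest on 10 and 4 Nos2 reads in KO and 4 and 4 in WT, so their sizes are loosely held. With LPS, Nos2 was 15.4 and 19.9 times Arg1 in WT, and 0.951 and 6.02 times Arg1 in KO. The WT LPS libraries thus both lay above the KO ones, with KO replicate 1 near equality. Arg1 exceeded Arg2 by 1.58 to 24.2 times at steady state and by 2.77 and 11.3 times in KO with LPS, and was 0.822 and 1.15 times Arg2 in WT with LPS. These ratios are descriptions with no test.

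The next question was whether the loss of Gata1 shifted any of the 7 enzymes. At steady state 0 of the 7 were called between KO and WT, and 0% of all genes were. By DESeq2 the enzymes gave 0 and all genes 27. At an unadjusted p under 0.05 the enzymes again gave 0 and all genes 2.63%. With LPS 0 of the 7 were called, in edgeR and in DESeq2, and 0 had an unadjusted p under 0.05. Over all genes edgeR called 0.772% there, 0.281% higher and 0.490% lower in KO, and 16.9% had an unadjusted p under 0.05. DESeq2 called 1058 genes there, against 96 in edgeR.

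Intervals from the fit to all 8 libraries show what sizes the data still allow. Gch1 was the most closely bounded, with KO over WT log2 -0.16 ± 0.24 at steady state (95% interval -0.72 to 0.40) and 0.16 ± 0.23 with LPS (-0.39 to 0.70). For Irg1 they were -0.22 ± 0.47 (-1.32 to 0.87) and 0.57 ± 0.44 (-0.45 to 1.60). For Nos2 they were 0.74 ± 1.24 (-2.17 to 3.65) and -0.65 ± 0.76 (-2.43 to 1.13). The Nos2 difference with LPS turned to 0.62 when WT LPS replicate 1 was left out, and to 0.03 when KO LPS replicate 1 was, so its sign rests on which library is kept.

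Asl was -0.44 ± 0.35 at steady state (95% interval -1.27 to 0.39) and -0.18 ± 0.36 with LPS (-1.02 to 0.65). Among the arginases, Arg1 was 1.41 ± 1.16 at steady state (95% interval -1.31 to 4.12) and turned to -1.79 without KO replicate 1. With LPS it was 1.85 ± 1.17 (-0.90 to 4.60) and stayed between 1.11 and 3.40 with any 1 library left out. Arg2 was -0.97 ± 0.91 at steady state and -0.75 ± 0.87 with LPS, and the second value turned to 1.21 without WT LPS replicate 1. Median SDs of log2 CPM between partner libraries rose from KO steady state (0.111) through WT steady state (0.196) and KO LPS (0.355) to WT LPS (0.463). A fit restricted to the steady-state libraries gave every tested enzyme a smaller SE, such as 0.14 for Asl, 0.45 for Arg2 and 1.11 for Arg1. In a fit restricted to the LPS libraries the SE grew for each enzyme except Arg1 (0.76), reaching 0.88 for Nos2.

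Asl, Gch1 and Arg2 were lower in both KO steady-state libraries than in both WT ones, which makes 3 of 6 tested enzymes apart where 45.5% of all genes were apart (22.1% higher and 23.4% lower in KO). With LPS only Arg1 was apart, 1 of 6, where 36.1% of all genes were (18.0% higher and 18.1% lower in KO).

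**Figure D4:**
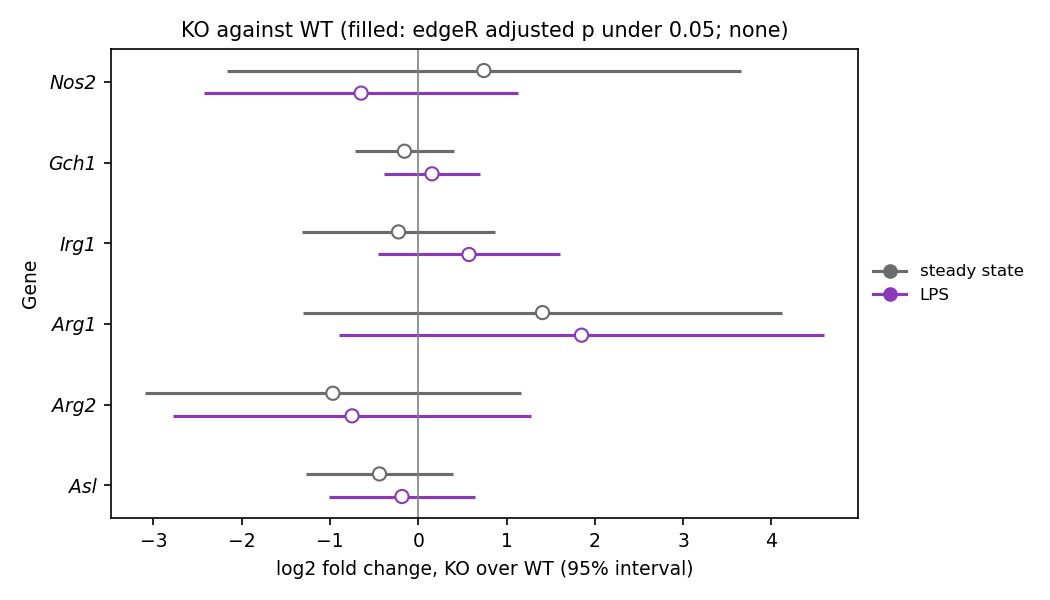
KO over WT as log2 fold change with its 95% interval for 6 enzymes, at steady state in grey and with LPS in purple. Every interval crosses 0, the Gch1 intervals are the narrowest, and those of Arg1 at steady state reach from -1.31 to 4.12.

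The LPS responses themselves were compared between genotypes through the interaction term. Of the 6 enzymes tested 0 were called, in edgeR and in DESeq2, and 0% of all genes were called (104 genes by DESeq2, and 6.41% at an unadjusted p under 0.05). The KO response minus the WT response was log2 -1.39 ± 1.46 for Nos2 (95% interval -4.81 to 2.03), 0.80 ± 0.64 for Irg1 (-0.71 to 2.30) and 0.31 ± 0.34 for Gch1 (-0.47 to 1.10). It was 0.44 ± 1.61 for Arg1, 0.22 ± 1.24 for Arg2 and 0.25 ± 0.50 for Asl. Every edgeR adjusted p was at least 0.973.

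By group mean, Nos2 ran from WT LPS (971 CPM) to KO LPS (620), KO steady state (0.565) and WT steady state (0.342). Neighbours in that order overlapped except between KO LPS and KO steady state. Irg1 and Gch1 both ran from KO LPS to WT LPS, WT steady state and KO steady state, with a gap between LPS and steady state, and for Gch1 also between the steady-state groups. Arg1 ran from KO LPS (108 CPM) to KO steady state (60.3), WT LPS (30.4) and WT steady state (22.8), with every neighbour overlapping. Arg2 ran from WT LPS (22.6) to KO LPS (13.4), WT steady state (5.29) and KO steady state (2.71), and of neighbours in that order only the LPS groups overlapped. Asl ran from WT steady state (98.3) to WT LPS (74.9), KO steady state (72.4) and KO LPS (66.0), and of neighbours in that order only the first pair did not overlap.

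The genes around these enzymes were read in 6 lists, which hold 65 other genes, 51 of them tested. With LPS 3 were called higher and 1 lower in WT, or 7.84% of those tested. In KO 3 were called higher and 3 lower, or 11.8%. These shares lie near the 6.49% and 11.8% of all genes. Between KO and WT, 0 were called at steady state and 1 was called with LPS.

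Of 6 arginine transport genes 5 were tested, and their median LPS difference was log2 1.405 in WT and 0.82 in KO, against 0.00 and -0.02 over all genes. Slc7a2, which brings arginine into the cell (CAT2), was called higher in both. It lay at 19.2 and 30.6 CPM in WT and 158 and 83.1 in KO at steady state, and at 1902 and 915 in WT and 1085 and 1187 in KO with LPS. Steady-state KO libraries were above the WT ones, and the LPS libraries overlapped between genotypes. The LPS difference of Slc7a2 was log2 5.82 ± 0.58 in WT (edgeR adjusted p = 0.00464) and 3.24 ± 0.52 in KO (edgeR adjusted p = 0.0130). It lost its call in WT without WT steady-state replicate 1 (0.0582) and in KO without KO steady-state replicate 1 or 2 or KO LPS replicate 2 (0.0657, 0.101 and 0.0622). At steady state Slc7a2 was log2 2.27 ± 0.50 in KO over WT, not called by edgeR (adjusted p = 0.934) and called by DESeq2 (adjusted p = 0.00421). Its interaction was -2.58 ± 0.68 (edgeR adjusted p = 0.579).

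A second arginine carrier, Slc7a1 (CAT1), went from 17.0 and 16.8 CPM to 36.2 and 53.1 in WT. In KO it also went up, from 19.1 and 20.6 CPM to 27.3 and 42.9 (not called). It was called higher in WT, with log2 1.405 ± 0.31 (edgeR adjusted p = 0.0431). That call ended on leaving out KO steady-state replicate 1 or 2 (0.0996 and 0.1004) or WT steady-state replicate 1 or 2 (0.242 and 0.222), and in a fit to the 4 WT libraries alone (0.116). The shared heavy chain Slc3a2 went from 233 and 235 CPM to 1126 and 418 in WT, and from 217 and 256 to 625 and 1893 in KO, without passing (edgeR adjusted p = 0.135 and 0.0508). Slc7a7, its light chain for arginine efflux, went from 38.0 and 26.8 CPM to 62.8 and 65.2 in WT, and from 30.3 and 48.0 to 25.6 and 19.6 in KO (not called). Slc7a6, another light chain and named outside the rule after its values were seen, went from 39.5 and 38.2 CPM to 16.0 and 24.7 in WT, and from 31.6 and 36.04 to 20.8 and 18.5 in KO (not called).

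Of 12 genes for the other nitric oxide synthases, the urea cycle and methylarginines, 6 were tested, and 1 was called, in KO. Nosip, a binding partner of endothelial nitric oxide synthase, was called higher in KO with LPS, from 40.3 and 39.8 CPM to 74.0 and 92.0 (log2 1.05 ± 0.23, edgeR adjusted p = 0.0319). In WT it also went up, from 51.8 and 41.7 CPM to 77.9 and 69.4 (not called). Nos1 had 0 reads in every library and Nos3 at most 2. Ddah2, which degrades methylarginine inhibitors, had 1.06 to 8.11 CPM, and Gatm, which uses arginine to start creatine synthesis, had 14.7 to 102 CPM. The polyamine-related Adc held 2.60 to 14.2 CPM.

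Of 7 other genes of tetrahydrobiopterin synthesis and recycling 6 were tested and 0 were called in edgeR. Their median LPS difference was log2 -0.70 in WT and -0.55 in KO, opposite in sign to Gch1. Sepiapterin reductase (Spr), which completes the cofactor, lay at 80.5 and 74.2 CPM in WT and 60.9 and 52.2 in KO at steady state, and at 22.1 and 44.9 in WT and 25.4 and 22.2 in KO with LPS. The edgeR adjusted p was 0.0801 in WT and 0.0574 in KO. Qdpr and Pcbd2, of cofactor recycling, held 33.0 to 81.8 and 11.2 to 23.1 CPM, and Pcbd1 at most 1.24 CPM. At an unadjusted p under 0.05, 3 of the 6 passed in WT (26.7% of all genes) and 4 in KO (32.8%).

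Of the genes that sense nitric oxide or clear its adducts, only Adh5 was tested. This enzyme, which breaks down S-nitrosoglutathione, was called higher in KO, at 161 and 201 CPM with LPS against 79.8 and 71.3 (log2 1.26 ± 0.29, edgeR adjusted p = 0.0340). In WT it also went up, from 76.4 and 75.5 CPM to 133 and 83.0 (not called). The soluble guanylate cyclase subunit Gucy1a3 had reads only in WT steady-state replicate 2.

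Downstream of the arginases, 15 ornithine, polyamine and proline genes were listed and 12 tested. Smox, which oxidises spermine, was called higher in WT with LPS, from 122 and 152 CPM to 921 and 488 (log2 2.36 ± 0.41, edgeR adjusted p = 0.0204). In KO it went from 75.5 and 85.9 to 129 and 217 CPM (edgeR adjusted p = 0.109). Its WT call was lost in a fit to the 4 WT libraries alone (0.0759). Leaving out WT steady-state replicate 1 or 2 or KO steady-state replicate 1 also ended it (0.175, 0.121 and 0.0509). Aldh18a1, which starts proline synthesis, was called lower in KO with LPS, from 18.4 and 21.3 CPM to 7.23 and 5.05 (log2 -1.69 ± 0.31, edgeR adjusted p = 0.0189). In WT it went from 19.5 and 17.4 CPM to 18.0 and 14.6 (not called). Prodh, which breaks proline down, was lower in KO with LPS, at 5.76 and 4.44 CPM against 31.7 and 31.4 in WT (log2 -2.62 ± 0.35, edgeR adjusted p = 0.0366). That call was lost without any 1 of the 4 steady-state libraries or either KO LPS library (0.0670 to 0.152), and in a fit to the 4 LPS libraries alone (0.312). Odc1, the entry to the polyamines, held 14.9 and 49.5 CPM in the KO libraries and 69.8 and 25.6 in the WT libraries with LPS, against 7.99 to 15.2 at steady state. Sat1, which acetylates polyamines, held 77.7 to 252 CPM.

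Around itaconate, all 21 citrate, aconitate and succinate genes were tested. Their median LPS difference was log2 -0.01 in WT and 0.36 in KO. Idh1, cytosolic isocitrate dehydrogenase, fell in WT from 439 and 404 CPM to 44.0 and 88.3 (log2 -2.67 ± 0.45, edgeR adjusted p = 0.0187). In KO it went from 417 and 343 to 259 and 137 CPM (not called). The WT call was lost without WT steady-state replicate 1 or 2 (0.122 and 0.0943) and in a fit to the WT libraries alone (0.0585). In KO, 2 genes were called lower, and both were also lower with LPS in WT without being called there. Aco1, cytosolic aconitase, was at 200 and 165 CPM before and 89.0 and 65.7 after LPS in KO (log2 -1.24 ± 0.29, edgeR adjusted p = 0.0391). In WT it went from 150 and 173 CPM to 63.7 and 94.3. Suclg2, a succinyl-CoA synthetase subunit, was at 6.13 and 7.0 CPM before and 1.92 and 1.38 after in KO (log2 -1.97 ± 0.48, edgeR adjusted p = 0.0422). In WT it went from 5.70 and 3.94 CPM to 1.32 and 2.29. Sdha, a subunit of the succinate dehydrogenase that itaconate inhibits, held 186 to 306 CPM, and the citrate carrier Slc25a1 held 54.0 to 133 CPM. Nosip, Adh5, Aco1 and Suclg2 in KO each lost the call without KO LPS replicate 2 or any 1 of the 4 steady-state libraries (edgeR adjusted p of 0.0622 to 0.230), and Adh5, Aco1 and Suclg2 also without KO LPS replicate 1 (0.0557, 0.0628 and 0.0816). Aldh18a1 lost the call without KO LPS replicate 2, WT steady-state replicate 1 or either KO steady-state library (0.0511 to 0.143).

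**Figure D5:**
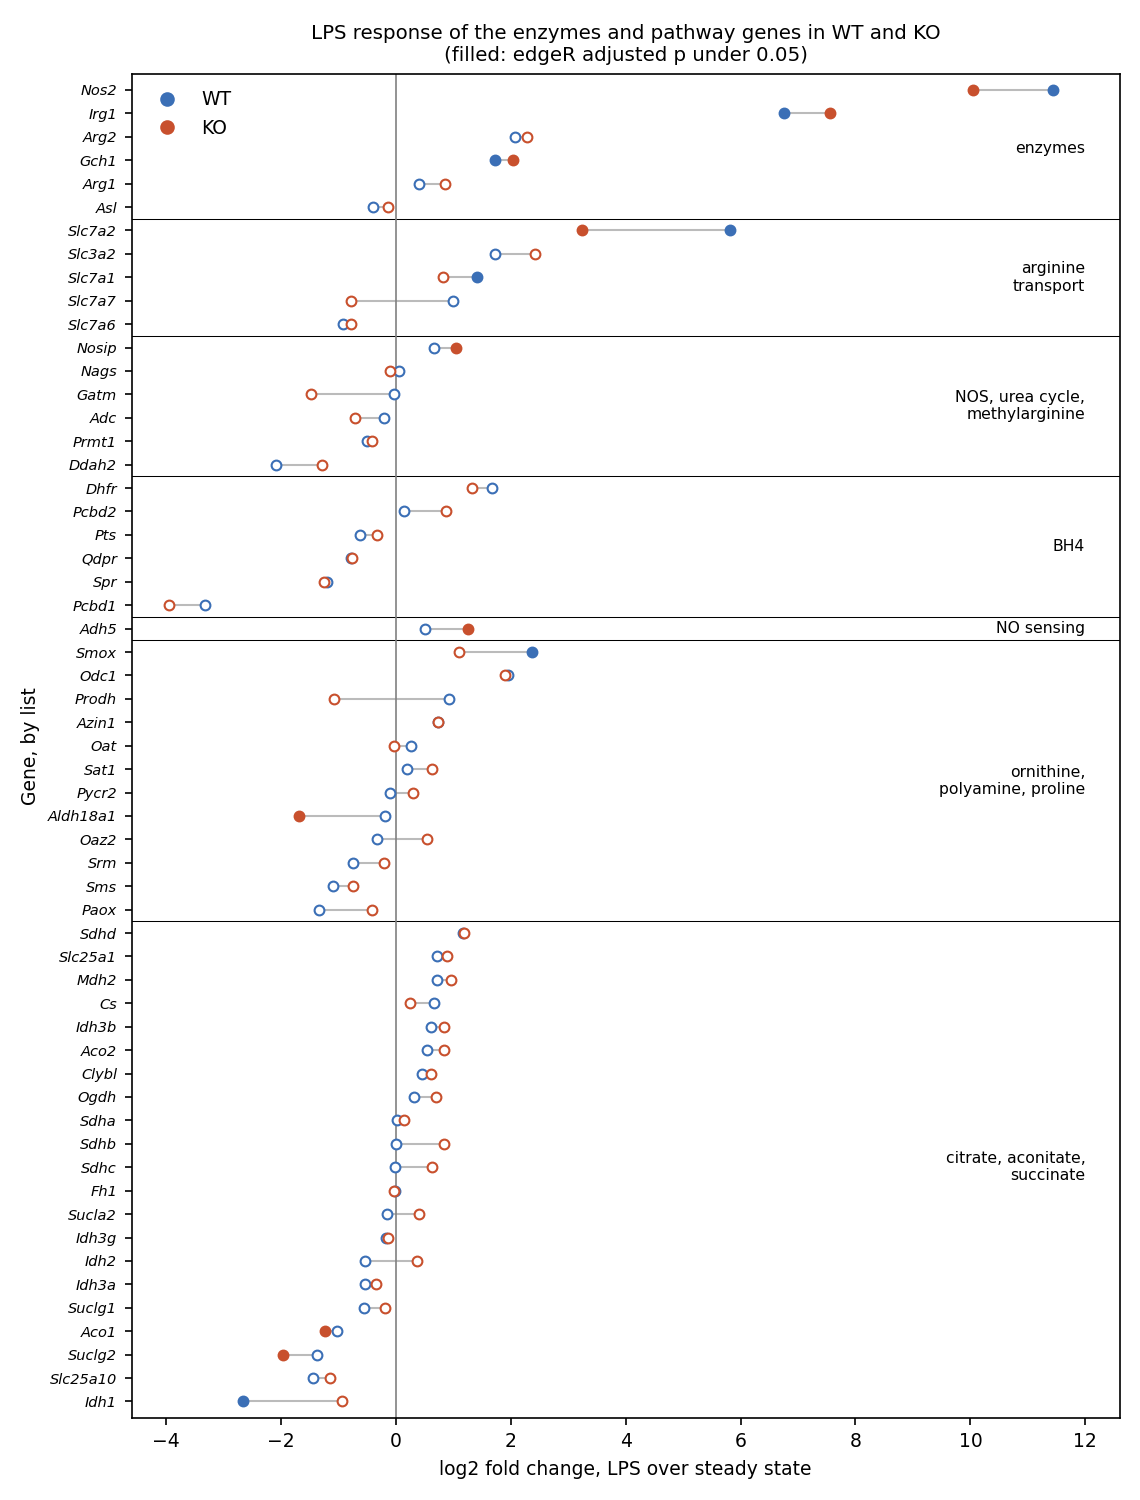
LPS over steady state as log2 fold change for the 6 tested enzymes and the tested genes of 6 pathway lists (BH4 is tetrahydrobiopterin, NOS nitric oxide synthase), WT in blue and KO in red, filled where called. Nos2 and Irg1 lie farthest right, Slc7a2 is the one pathway gene filled in both genotypes, and Idh1 is filled in WT alone.

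Genes whose log2 CPM ran most like each enzyme over the 8 libraries were listed as a description. All of these correlations share the same libraries and treatment groups. For Nos2 they were Il1a (Pearson's r = 0.998), Xaf1 (0.997) and Casp4 (0.995), of 8616 candidate genes. For Irg1 they were Clec4e (0.999), Ly6i (0.998) and Aga (0.997). For Gch1 they were Ly6i (0.994), Cfb (0.992) and Irg1 (0.992). The interleukin-1 alpha gene Il1a held 10.01 to 13.1 CPM at steady state and 288 to 655 with LPS. The most similar genes were less close for Arg1, Slc24a6 (0.905), F7 (0.904) and Sdc1 (0.891). For Arg2 they were Ulk1, Iqcb1 and Bag6 (0.982, 0.982 and 0.981), and for Asl Zfp787 (0.970), Rbm42 (0.938) and Zfp560 (0.936). Between the enzymes, r was 0.984 for Nos2 and Irg1, 0.969 for Nos2 and Gch1, 0.790 for Nos2 and Arg2 and 0.354 for Nos2 and Arg1.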

How the data were processed

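The data are RNA-seq libraries of mouse dendritic cells, 8 in number, 2 for each genotype and treatment, grouped and numbered by their titles. Per the labels' protocols, RNA came from an RNeasy plus kit and libraries from a TruSeq v2 kit. That kit keeps no strand information. The authors deposited raw read counts per gene. Tools in the submitters' processing notes are Subread 1.4.3, edgeR 3.6.8, featureCounts and TopHat2 2.0.8, with the build mm10, and no roles. The treatment of reads matching several genes is not stated there. No row was blank or a total.

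Counts were fitted in R 4.3.3 with edgeR 4.0.16, with TMM scaling, filterByExpr defaults (minimum count 10, minimum total 15) and 1 coefficient per group over all 8 libraries. Residual and prior degrees of freedom were 4 and 3.40. Tested were the genotype difference within each treatment, the LPS difference within each genotype, and their interaction, 5 comparisons in all. Of the 7 enzymes 6 passed the filter. The pipeline was tested on simulated data. Alternatives were DESeq2 1.42.0, other scaling and filters, smaller fits, a replicate block and each library left out. Members and lists were chosen with earlier results of these data known. Pathway genes were named where called, among the 4 with the smallest adjusted p or the 2 most abundant of a list. Likeness used log2 CPM with a prior count of 2, for genes with a mean of at least 3. Coordinates and exon lengths are from GENCODE M21 (GRCm38), which may differ from the annotation used for counting. No pair of replicates agreed within sampling noise.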

Additional observations from a re-analysis of the deposited data

How the results depend on the processing

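Of 624 single-gene values under an alternative, 536 kept direction and side of the threshold, 64 lost the call, 6 gained it and 18 turned direction. Most of the 536 belong to results not called in the reported fit, which had no call to lose. All 64 losses fell on results that were called there, so the share of 624 understates how often a call was lost. Whether equal replicate numbers mark a shared source is not stated in the labels. Deviations of same-numbered libraries correlated at 0.166, 0.113, 0.0496, -0.155 and 0.260 between 5 pairs of groups and at -0.599 between KO and WT with LPS, so the numbers were not taken to pair the libraries. With the replicate block the enzymes called with LPS stayed 3 in WT and 3 in KO, and Arg1 in WT turned to log2 -0.069. The block also ended the calls of Slc7a1 in WT, Prodh, Nosip, Adh5, Aco1 and Suclg2 (edgeR adjusted p of 0.0623, 0.0864, 0.0690, 0.0649, 0.0766 and 0.0794).

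The number of all genes called moved more than that of the enzymes. With no filter it was 9 at steady state and 538 with LPS between KO and WT (0 and 96 as reported), 1497 and 2223 for LPS in WT and KO (807 and 1463), and 3 for the interaction (0). With DESeq2 these were 27, 1058, 1995, 2846 and 104. With only the groups compared they were 1, 0, 229 and 2273, and with the block 8 for KO against WT with LPS, 465 for LPS in WT and 776 for LPS in KO. With the 2 KO LPS numbers crossed in the block, an alternative chosen after seeing the data, they were 273, 1285 and 2484. With 1 library left out they ran from 0 to 1, 1 to 826, 70 to 3629, 143 to 3345 and 0 to 0. The enzymes called ran from 1 to 4 in WT and 1 to 4 in KO. A group then has 1 library, assumed to vary like the others.

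With 1 library left out, KO over WT at steady state ran from log2 -0.75 to 0.16 for Irg1 and -1.79 to 2.31 for Arg1. With LPS it ran from -1.96 to 0.62 for Nos2, -0.81 to 0.24 for Asl, -0.023 to 0.29 for Gch1 and -1.58 to 1.21 for Arg2. The LPS difference ran from -1.15 to 1.15 for Arg1 in WT, and in KO from -0.052 to 4.05 for Arg1 and -0.77 to 0.29 for Asl. The interaction ran from -0.46 to 3.64 for Arg1, -0.62 to 2.18 for Arg2 and -0.38 to 0.68 for Asl. The cause of these changes was not tested. The depth of 8005151 to 15495249 counts limits what can be said of Ass1 and of Nos2 before LPS. For Ass1 the unstated treatment of reads matching several genes is a further limit.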
